A study of Mus musculus with 6 samples.

Results

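The genes described here carry protons and bicarbonate across membranes or interconvert carbon dioxide and bicarbonate. They are the subunits of the vacuolar proton pump (V-ATPase, Atp6v0 and Atp6v1 genes), the Slc4 and Slc26 families of anion exchangers and bicarbonate transporters, and the carbonic anhydrases (Car genes). The rule that picks them uses gene symbols and no measured value: 59 of the 37323 genes on the array matched, with 111 of its 56599 probes. Of these, 52 genes with 81 probes passed the filter on dim probes (well above background on 3 or more of the 6 arrays) and were tested, among 22741 genes tested in all.

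Cortical kidney RNA was hybridised to 6 Agilent arrays with a single dye. The WT group was 3 samples from male C57BL/6 mice with diabetes. The C3aR-/- group was 3 samples from male C57BL/6 mice with diabetes that are labelled as deficient in the receptor for the complement fragment C3a; the labels do not say how its gene was disrupted. Both groups had been put on a high-fat diet (60% of calories from fat) at 8 weeks of age, were given streptozotocin, which destroys the beta cells that make insulin, at 60 mg/kg on 3 days after 4 weeks of the diet, and were sacrificed 26 weeks later. Mice without diabetes were not analysed here, so every difference is between genotypes within diabetes. Nothing in the labels says that replicates were separate animals, so the spread behind the p-values may be technical.

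Intercalated cells are the acid-base cells of the connecting tubule and collecting duct. In type A cells a V-ATPase in the apical membrane secretes protons while the exchanger Slc4a1 returns bicarbonate to the blood, and in type B cells the exchanger Slc26a4 (pendrin) secretes bicarbonate. The V-ATPase has a soluble V1 part, which splits ATP, and a membrane V0 part, which carries the protons; every cell uses it to acidify lysosomes and endosomes, and intercalated cells build it with tissue-restricted isoforms of several subunits beside the ubiquitous ones. The proximal tubule reclaims most of the filtered bicarbonate. The membrane carbonic anhydrases Car4 and Car14 and the sodium bicarbonate cotransporter Slc4a4 take part in that work.

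Levels are log2 processed signals relative to each array's 75th percentile, so a negative level lies below that percentile. Differences are C3aR-/- minus WT on the same log2 scale, with the limma standard error over 3 arrays per group. Values are listed for replicates 1, 2 and 3 of a group in that order. Different probes bind with different strength, so levels are compared between arrays for 1 gene and not between genes, and the number of arrays limits the precision.

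No acid-base transport gene passed the test over all genes. With limma and Benjamini-Hochberg adjustment, 0% of the genes tested had an adjusted p under 0.05, and the lowest adjusted p of any gene was 0.858. Of the 52 members, 3 had an unadjusted p under 0.05, against 1111 or 4.89% of all genes tested: Slc26a4 and Car8 read higher in C3aR-/- (background 2.21%) and Atp6v1g2 lower (background 2.68%). The groups did not overlap for 7 members, against 9.85% of all genes; 6 of these 7 read higher in C3aR-/-. In all, 40 members read higher and 12 lower, with a median difference of 0.13, beside 0.03 over all genes tested, of which 43.4% read lower. Without WT replicate 1 and C3aR-/- replicate 2 together, 33 members read higher and 19 lower, with a median of 0.09, and 13 had changed sign. Leaving out WT replicate 3 lowered the members' median to 0.08, leaving out C3aR-/- replicate 2 to 0.07, and array weights to 0.08.

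**Figure D1:**
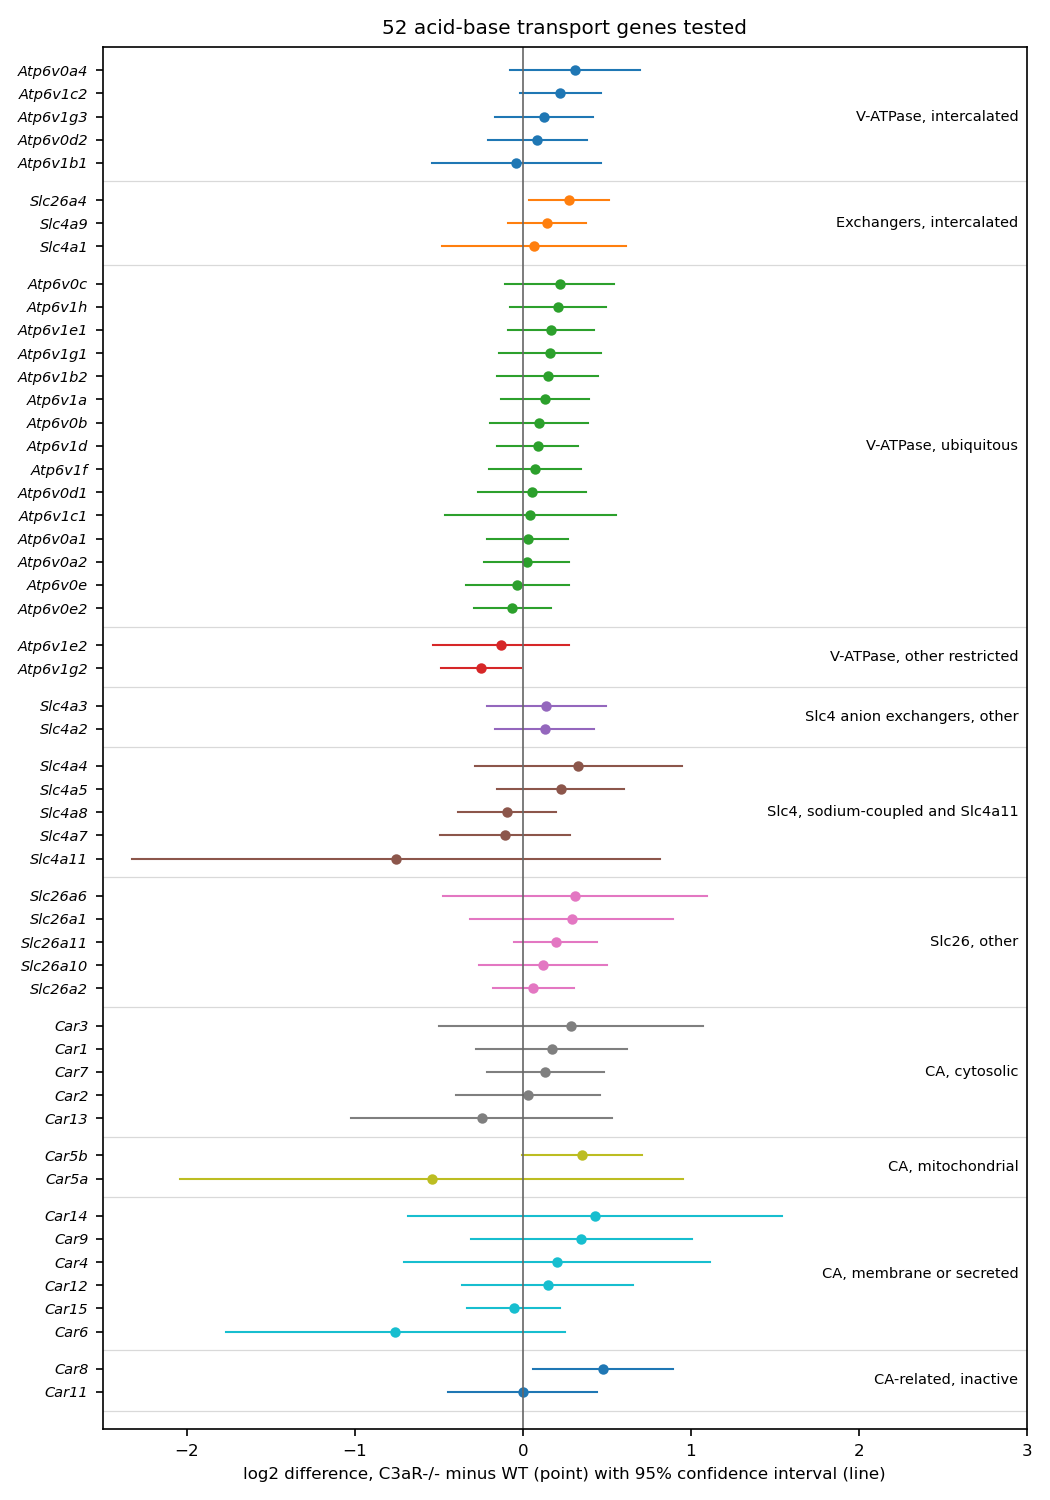
Log2 difference between C3aR-/- and WT (horizontal axis, points) with its 95% confidence interval from limma (lines) for the 52 acid-base transport genes tested, grouped by role; CA stands for carbonic anhydrase. Most points lie to the right of 0, and the intervals of Slc26a4, Car8 and Atp6v1g2 do not include 0.

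C3ar1, the gene of the receptor, read -2.96, -3.86 and -3.62 in WT and -4.10, -4.95 and -4.69 in C3aR-/-. C3ar1 differed by -1.10 ± 0.30, with groups that did not overlap (limma adjusted p = 0.931). Its probe was well above background on 3 WT and 2 C3aR-/- arrays. It lies at chr6:122798222-122798281 (mm9), and the sources used here do not say whether the disruption of the gene covers it. Between 58.6% and 63.0% of probes were well above background on each array. WT replicate 1 held the lowest value of 29.6% and the highest of 28.0% of all genes tested, and C3aR-/- replicate 2 of 20.8% and 25.8%, more than the other arrays. They are called the end arrays here. Markers of kidney tubules were detected: all 10 proximal tubule genes and all 6 genes of the thick limb and distal tubule were well above background and tested, as were all 8 intercalated cell markers and all 7 principal cell markers. Several of these genes are also expressed in medulla, and no list of medullary markers was examined. Immune cell markers read lower: 7 of 8 macrophage markers and 6 of 6 T cell markers did so in C3aR-/-, with medians of -0.59 and -1.28, or -0.20 and -0.94 without both end arrays. The mean level of the macrophage list was 2.14 to 2.74 in WT and 1.71 to 2.11 in C3aR-/-. In whole cortex, fewer cells of a type and less RNA per cell cannot be told apart.

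The intercalated-cell isoforms of the pump and the exchangers read slightly higher in C3aR-/- cortex, by an amount that did not pass the test. Of 9 such genes 8 were tested; 7 read higher and 1 lower, with a median difference of 0.14 and a range from -0.04 to 0.31. The array means of these 8 genes were 1.71, 1.74 and 1.68 in WT and 1.89, 1.82 and 1.88 in C3aR-/-. No adjusted p was under 0.931. Without WT replicate 1 and C3aR-/- replicate 2 the median was 0.21, and still 7 of the 8 read higher.

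Slc26a4, the apical chloride-bicarbonate exchanger of type B cells, had the smallest p of the 8. It read 4.39, 4.45 and 4.31 in WT and 4.70, 4.71 and 4.57 in C3aR-/-. All C3aR-/- arrays lay above all WT arrays. The difference was 0.27 ± 0.10, or 1.21 times the WT signal, with a 95% confidence interval of 0.04 to 0.51 (limma unadjusted p = 0.029, adjusted p = 0.931). Its 60-base probe lies at chr12:32204766-32204825 (mm9) on the minus strand, and its first 30 bases are shown to identify what was measured, in lower case with no part set apart.
Slc26a4: aggaaggactaatcacagagattcctgact

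Slc4a9, an anion exchanger of intercalated cells, read 2.13, 2.30 and 2.21 in WT and 2.37, 2.31 and 2.40 in C3aR-/-. These groups did not overlap either, though WT replicate 2 and C3aR-/- replicate 2 differed by little. The difference was 0.15 ± 0.10 (limma adjusted p = 0.931), and a second probe of the gene read 0.22 ± 0.11.

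Slc4a1, the basolateral exchanger of type A cells and the main anion exchanger of red cells, varied more within than between groups. It read 1.81, 1.90 and 2.22 in WT and 2.40, 1.60 and 2.12 in C3aR-/-, so the highest and the lowest array were both C3aR-/-. The difference of 0.07 ± 0.23 had a 95% confidence interval of -0.48 to 0.61, and it turned to -0.02 without WT replicate 1 and to -0.12 without C3aR-/- replicate 1, and was 0.20 without both end arrays. Red cell transcripts differed between the arrays too: the mean of the 5 tested red cell markers was 2.55, 3.95 and 3.80 in WT and 3.85, 4.62 and 3.67 in C3aR-/-, with all 5 reading higher in C3aR-/- but 1 of 5 without both end arrays. Slc4a1 was lowest on C3aR-/- replicate 2, where those markers were highest. The red cell markers Rhag, Epb42 and Ank1 did not pass the filter on dim probes. The part of red cells in the value of Slc4a1 was not tested.

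Slc26a7, an exchanger of type A cells in the outer medulla, was not well above background on any array with either of its 2 probes and was not tested.

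Atp6v0a4, the a subunit of V0 whose loss in humans causes distal renal tubular acidosis, read 4.01, 4.48 and 4.24 in WT and 4.51, 4.75 and 4.39 in C3aR-/-. WT replicate 1 was lowest and C3aR-/- replicate 2 highest, and C3aR-/- replicate 3 lay below WT replicate 2, so the groups overlapped. The difference was 0.31 ± 0.16, with a 95% confidence interval of -0.08 to 0.70 (limma unadjusted p = 0.1, adjusted p = 0.931). It was 0.09 ± 0.13 without both end arrays. The mean of the 10 proximal tubule markers was lowest and highest on the same arrays as Atp6v0a4. The part of proximal tubule cells in its value was not tested. The Atp6v0a4 probe lies at chr6:37998491-37998550 (mm9) on the minus strand and begins as follows.
Atp6v0a4: ccctcacctgaagttcctgcagtatttcaa

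Atp6v1c2 encodes a C subunit, which links the V1 part to the V0 part. It read 1.52, 1.64 and 1.65 in WT and 1.92, 1.76 and 1.79 in C3aR-/-, with no overlap. The difference was 0.22 ± 0.10 and its 95% confidence interval -0.02 to 0.46 (limma unadjusted p = 0.063, adjusted p = 0.931). It was 0.21 ± 0.10 without both end arrays. Its probe lies at chr12:17291566-17291625 (mm9) on the minus strand and begins as follows.
Atp6v1c2: acaaccgagtcctgcaggattctgactcag

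Atp6v1g3, a G subunit of the pump's stalk, read -0.52, -0.68 and -0.82 in WT and -0.49, -0.68 and -0.47 in C3aR-/-, a difference of 0.13 ± 0.12. Atp6v0d2, a d subunit that osteoclasts and macrophages also use, read 1.37, 1.1 and 1.13 in WT and 1.37, 1.15 and 1.34 in C3aR-/-, a difference of 0.09 ± 0.12. In both genes C3aR-/- replicate 2 lay inside the WT range. Without both end arrays they differed by 0.27 ± 0.10 and 0.24 ± 0.09. For Atp6v0d2, 7 of 8 macrophage markers and 2 of the 3 tested osteoclast markers read lower in C3aR-/-, and the osteoclast list mean was 0.59 to 1.01 in WT and 0.64 to 0.95 in C3aR-/-. Their part in its value was not tested.

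Atp6v1b1, the B subunit of the V1 head, which is also mutated in human distal renal tubular acidosis, was the intercalated isoform that read lower. It read -1.01, -1.24 and -1.47 in WT and -1.68, -1.07 and -1.09 in C3aR-/-. A single array, C3aR-/- replicate 1, lay below the WT range, and the other C3aR-/- arrays lay inside it. The difference was -0.04 ± 0.21 with a 95% confidence interval of -0.54 to 0.47; it was 0.16 without C3aR-/- replicate 1 and 0.07 without WT replicate 1.

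The B subunit isoforms are separate genes, and each has a probe that crosses an intron; these are shown to identify what was measured. The Atp6v1b1 probe covers chr6:83706880-83707858 (mm9, plus strand), 60 bases spread over 979, and a probe of the ubiquitous Atp6v1b2 covers chr8:71626723-71627298 (mm9, plus strand), 60 bases spread over 576. Both are printed whole from 5′ to 3′, in lower case with no part set apart.
Atp6v1b1: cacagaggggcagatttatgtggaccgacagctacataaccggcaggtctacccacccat
Atp6v1b2: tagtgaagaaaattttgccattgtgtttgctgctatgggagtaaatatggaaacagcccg
The printed Atp6v1b2 probe differed by 0.17 ± 0.15 between the groups, and a second probe of this gene, which was brighter and gives the gene's values, by 0.15 ± 0.12, or 0.03 ± 0.13 without both end arrays.

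**Figure D2:**
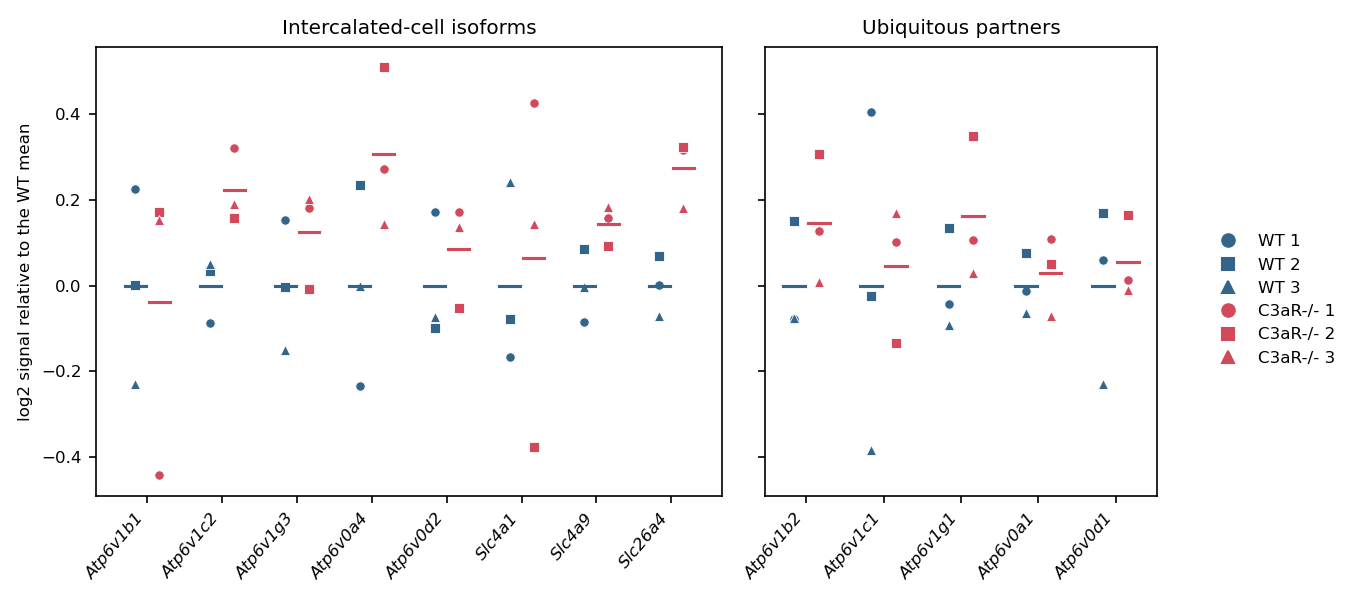
Log2 signal of each array relative to the gene's WT mean (vertical axis) for the 8 tested intercalated-cell isoforms (left) and the 5 ubiquitous partners (right); each marker is 1 array and bars are group means. The C3aR-/- arrays of Slc26a4, Atp6v1c2 and Slc4a9 lie above all WT arrays, and those of Atp6v1b1 and Slc4a1 spread to both sides of 0.

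The ubiquitous subunits read higher in 13 of 15 genes, with a median difference of 0.09 and a range from -0.06 to 0.22, so their spread of values overlapped that of the intercalated isoforms. All 15 were tested, and 0 had an unadjusted p under 0.05. The median was 0.14 without WT replicate 2. Atp6v0c, the proteolipid of the proton-carrying ring, read 5.57, 5.63 and 5.22 in WT and 5.75, 5.68 and 5.65 in C3aR-/-. Its groups did not overlap, unlike those of the other ubiquitous subunits, and the difference was 0.22 ± 0.14. A second, dimmer probe of Atp6v0c read 0.16 ± 0.20, and its groups overlapped. Atp6v1h, a regulatory subunit of V1, read 4.66, 4.76 and 4.58 in WT and 5.03, 4.87 and 4.72 in C3aR-/-, a difference of 0.21 ± 0.12. In both, WT replicate 3 was the lowest array, as it was for 10 of the 15 ubiquitous subunits.

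The other ubiquitous subunits lay closer to 0. The catalytic A subunit Atp6v1a differed by 0.13, Atp6v1e1 and Atp6v1d of the stalks by 0.17 and 0.09, and Atp6v1f by 0.07. In the membrane part, Atp6v0b differed by 0.10, Atp6v0a2 by 0.02, Atp6v0e by -0.03 and Atp6v0e2 by -0.06. Without both end arrays Atp6v1f turned to -0.06, Atp6v0a2 to -0.07 and Atp6v0e to 0.07. A second probe of Atp6v0e read 0.25 and a second, dimmer probe of Atp6v0b 0.52, so probes of these genes did not give the same size.

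Each intercalated isoform was then set against the ubiquitous isoform of the same subunit within each array, which removes any scaling between arrays. The log ratio of a pair was compared between groups by exact permutation (two-sided; the smallest p for 3 against 3 is 0.1), and the p-values were adjusted over the 5 pairs. No pair could reach a p under 0.05 in this design, so the ratios are given as a description.

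In the a subunit pair, the ubiquitous Atp6v0a1 read 3.37, 3.46 and 3.32 in WT and 3.49, 3.43 and 3.31 in C3aR-/-, a difference of 0.03 ± 0.10. The log ratio of Atp6v0a4 over Atp6v0a1 was 0.64, 1.02 and 0.92 in WT and 1.02, 1.32 and 1.07 in C3aR-/-. The C3aR-/- arrays lay above the WT arrays, though WT replicate 2 and C3aR-/- replicate 1 differed by less than the rounding shown. The ratio differed by 0.28 (exact permutation p = 0.1, the smallest this design allows, adjusted p = 0.5) and by 0.08 without both end arrays. Further probes of Atp6v0a1, both dimmer, read -0.11 and 0.12.

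In the B pair, Atp6v1b2 read 5.29, 5.52 and 5.29 in WT and 5.50, 5.68 and 5.38 in C3aR-/-, a difference of 0.15 ± 0.12. The log ratio of Atp6v1b1 over Atp6v1b2 differed by -0.19 (exact permutation p = 0.6, adjusted p = 0.875) and was 0.01 without C3aR-/- replicate 1. In the C pair, Atp6v1c1 read 3.34, 2.91 and 2.55 in WT and 3.04, 2.80 and 3.10 in C3aR-/-, the widest spread among the ubiquitous subunits, and differed by 0.05 ± 0.21, or 0.34 ± 0.15 without both end arrays. The log ratio of Atp6v1c2 over Atp6v1c1 differed by 0.18 (exact permutation p = 0.7, adjusted p = 0.875) and turned to -0.07 without WT replicate 1.

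In the G pair, Atp6v1g1 read 5.99, 6.17 and 5.94 in WT and 6.14, 6.38 and 6.06 in C3aR-/-, a difference of 0.16 ± 0.13 (0.05 without both end arrays), and the log ratio of Atp6v1g3 over Atp6v1g1 differed by -0.04 (exact permutation p = 0.9, adjusted p = 0.9). In the d pair, Atp6v0d1 read 3.48, 3.59 and 3.19 in WT and 3.43, 3.59 and 3.41 in C3aR-/-, a difference of 0.06 ± 0.13, and the log ratio of Atp6v0d2 over Atp6v0d1 differed by 0.03 (exact permutation p = 0.6, adjusted p = 0.875). Across the 5 pairs the ratio was higher in C3aR-/- in 3 and lower in 2, and those of the B, C, G and d pairs changed sign when single arrays were left out.

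The promoters of the intercalated genes were read for the core of the forkhead motif, since Foxi1, a forkhead transcription factor, is needed for intercalated cells to form. The letters searched were TGTTTNC on both strands of the 250 bases before each start in the RefSeq promoter table of GRCm38.p6, and 42 of the 59 members were in that table. The motif was in 3 of 5 matched intercalated genes and in 0 of 12 windows of 10 matched ubiquitous pump genes, against 17.8% of all 32851 windows. A match is a run of letters and not a known site. The 3 windows with a match are shown 5′ to 3′ on the gene's own strand, with the match in capitals.
Atp6v1b1: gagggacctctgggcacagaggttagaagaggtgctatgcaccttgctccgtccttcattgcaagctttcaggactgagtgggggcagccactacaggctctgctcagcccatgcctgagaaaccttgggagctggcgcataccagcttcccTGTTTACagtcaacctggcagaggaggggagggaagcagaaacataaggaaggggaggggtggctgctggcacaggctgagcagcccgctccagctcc
Atp6v1g3: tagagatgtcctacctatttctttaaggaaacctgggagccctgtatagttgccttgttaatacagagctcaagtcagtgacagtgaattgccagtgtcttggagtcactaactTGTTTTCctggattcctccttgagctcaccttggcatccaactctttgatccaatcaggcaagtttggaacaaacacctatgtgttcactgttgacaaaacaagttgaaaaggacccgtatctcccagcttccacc
Slc26a4: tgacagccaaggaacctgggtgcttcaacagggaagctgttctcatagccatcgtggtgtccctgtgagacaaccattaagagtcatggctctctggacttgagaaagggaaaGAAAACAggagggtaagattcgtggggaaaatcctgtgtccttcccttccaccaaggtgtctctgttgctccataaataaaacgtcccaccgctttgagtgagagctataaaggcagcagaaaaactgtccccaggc
The windows are chr6:83742767-83743016 for Atp6v1b1, chr1:138273488-138273737 for Atp6v1g3 and chr12:31559985-31560234 (minus strand) for Slc26a4, all in GRCm38.p6. The match begins 98, 136 and 137 bases before the start of these genes, and in Slc26a4 it lies on the opposite strand. Foxi1 itself differed by 0.20 ± 0.15 between the groups, or 0.38 ± 0.13 without both end arrays. The 3 genes with the match differed by -0.04 ± 0.21, 0.13 ± 0.12 and 0.27 ± 0.10.

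Other intercalated cell genes, listed apart from the members, mostly read higher too. Of 13 such genes 11 read higher in C3aR-/-, with a median of 0.14 and a range from -0.22 to 0.32. Kit, named after its values were seen, was the lowest at -0.22 ± 0.11. Its C3aR-/- arrays lay below all WT arrays, while 4 genes of the list did not overlap in the higher direction. Over all genes tested, the groups did not overlap for 9.85%, both directions together. The list was chosen with earlier results of these data known. Rhcg and Rhbg, the ammonia channels of the collecting duct, differed by 0.29 ± 0.11 and 0.27 ± 0.11 (limma unadjusted p = 0.036 and 0.0466, adjusted p = 0.931 for both). Principal cell markers, the neighbours of intercalated cells in the same duct, read higher in 7 of 7 genes with a median of 0.13, with Aqp2, the vasopressin-regulated water channel, at 0.26 ± 0.17 and Avpr2, the vasopressin receptor, at 0.13 ± 0.09. The mean of the 8 intercalated markers was 2.27 to 2.37 in WT and 2.39 to 2.52 in C3aR-/-. The part of cell numbers in the values of the members was not tested.

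Genes that assemble or accompany the pump gave a median of 0.03 with 7 of 10 higher. Dmxl1, which takes part in pump assembly, differed by 0.36 ± 0.20 and Tcirg1, the a subunit of osteoclasts and T cells, by -0.16 ± 0.12. Sodium-proton exchangers, genes linked to ammonia formation and another proton pump read higher in 8 of 9 tested genes, with a median of 0.22. Without both end arrays 5 of 9 did, with a median of 0.01. Among them Slc9a4 and Slc9a2, both sodium-proton exchangers, differed by 0.43 ± 0.17 and 0.22 ± 0.15, and 1 of the 9 had an unadjusted p under 0.05. None of the 3 lists held a gene with an adjusted p under 0.05.

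The pump subunits known from other tissues were tested in 2 of 2 genes. Atp6v1g2, the G subunit of neurons, read -2.55, -2.46 and -2.35 in WT and -2.71, -2.75 and -2.64 in C3aR-/-, with no overlap. The difference was -0.25 ± 0.10 (limma unadjusted p = 0.0441, adjusted p = 0.931). It rests on 1 probe: the gene's other probes read 0.14 ± 0.19 and 0.28 ± 0.25, and the mean over probes was 0.05. Atp6v1e2, the E subunit of testis, read -4.85, -4.83 and -4.39 in WT and -5.03, -4.71 and -4.71 in C3aR-/-. It was above background on 2 arrays of each group, and its difference of -0.13 ± 0.17 turned to 0.02 without WT replicate 3.

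The remaining anion exchangers of the Slc4 family gave similar values. Slc4a2, the basolateral exchanger of many epithelia, read 1.82, 1.77 and 1.59 in WT and 1.99, 1.69 and 1.88 in C3aR-/-, a difference of 0.13 ± 0.12. Slc4a3 read 1.29, 1.12 and 1.48 in WT and 1.52, 1.21 and 1.57 in C3aR-/-, a difference of 0.14 ± 0.15. In both genes the groups overlapped, and C3aR-/- replicate 2 was the lowest of its group. They differed by 0.26 ± 0.12 and 0.25 ± 0.15 without both end arrays.

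Of the sodium-coupled members and Slc4a11, 5 of 6 were tested, 2 higher and 3 lower. Slc4a4, the cotransporter by which bicarbonate leaves the proximal tubule cell, read 5.60, 6.31 and 5.91 in WT and 6.20, 6.69 and 5.92 in C3aR-/-. WT replicate 1 was its lowest and C3aR-/- replicate 2 its highest array, and the difference of 0.33 ± 0.26 was -0.05 without them. Its other tested probes read 0.58 ± 0.24 and -0.16 ± 0.40. Slc4a5, an electrogenic cotransporter, read -4.39, -4.48 and -4.45 in WT and -4.34, -3.89 and -4.41 in C3aR-/-, a difference of 0.22 ± 0.16 with C3aR-/- replicate 2 standing highest, and of 0.09 without both end arrays. Slc4a7 and Slc4a8, both sodium-driven, differed by -0.11 and -0.09. Further probes of Slc4a8, both dimmer, read -0.07 ± 0.14 and 0.42 ± 0.19, so its probes did not give the same direction. Slc4a10 was above background on 1 WT array only and was not tested.

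Slc4a11, a family member that does not carry bicarbonate, had the widest range over arrays of all members, 2.96 on the log2 scale. It read 3.90, 1.98 and 2.65 in WT and 2.44, 0.94 and 2.90 in C3aR-/-. WT replicate 1 was highest and C3aR-/- replicate 2 lowest, and the other 4 arrays overlapped. The difference was -0.75 ± 0.65 with a 95% confidence interval of -2.32 to 0.82, and 0.35 without both arrays. A second probe read -0.55 ± 0.62.

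In the Slc26 family outside the intercalated group, 5 of 9 genes were tested and all 5 read higher, with a median of 0.20; without both end arrays 3 of 5 did, with a median of 0.04. Slc26a11, a sulfate transporter, read 0.98, 1.05 and 0.83 in WT and 1.18, 1.18 and 1.09 in C3aR-/-, with no overlap and a difference of 0.20 ± 0.10 (limma adjusted p = 0.931). A second probe of this gene read 0.03 ± 0.12, and its groups overlapped. Slc26a1, the basolateral sulfate exchanger of the proximal tubule, read 1.74, 2.66 and 2.15 in WT and 2.35, 2.73 and 2.33 in C3aR-/-. Its difference of 0.29 ± 0.25 was -0.06 without WT replicate 1, its lowest array, and C3aR-/- replicate 2, its highest. Slc26a6, an apical oxalate and chloride exchanger, differed by 0.31 ± 0.33 but by -0.24 ± 0.12 without both end arrays. Slc26a10 differed by 0.12 and the sulfate transporter Slc26a2 by 0.06. A second, dimmer probe of Slc26a2 read -0.06 ± 0.17. Slc26a3, Slc26a5, Slc26a8 and Slc26a9 were not well above background on any array.

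Carbonic anhydrases were tested in 15 of 16 genes, of which 11 read higher and 4 lower with a median of 0.15. Car2, the main cytosolic enzyme of the kidney and also of red cells, differed by 0.03 with a 95% confidence interval of -0.40 to 0.46, and by 0.28 ± 0.13 without both end arrays. Its arrays ran from 5.20 to 5.81 in WT and from 5.35 to 5.61 in C3aR-/-, so the C3aR-/- arrays lay inside the WT range. Car1, an enzyme of red cells, read -2.86, -2.29 and -2.19 in WT and -2.31, -2.21 and -2.31 in C3aR-/-, a difference of 0.17 ± 0.19 that was -0.03 without WT replicate 1, the array on which the red cell markers were also lowest; their part in it was not tested. Car7, a cytosolic enzyme, read 0.68, 0.35 and 0.21 in WT and 0.47, 0.61 and 0.57 in C3aR-/-, a difference of 0.13 ± 0.14, or 0.24 ± 0.11 without both end arrays.

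Car3, an enzyme of muscle and fat, differed by 0.29 ± 0.33 and the cytosolic Car13 by -0.24 ± 0.32. Without both end arrays they turned to -0.13 ± 0.17 and 0.27 ± 0.11. Among skeletal muscle markers, 4 of 6 were tested and all 4 read higher in C3aR-/-, the list mean being -3.51 to -3.38 in WT and -3.35 to -2.75 in C3aR-/-, while Ckm and Mb did not pass the filter on dim probes. Among fat cell markers 2 of the 4 tested read higher, the list mean being -2.14 to -0.04 in WT and -1.77 to -0.23 in C3aR-/-, and Adipoq and Plin1 did not pass. Their part in the values of Car3 was not tested.

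The mitochondrial enzymes read in opposite directions. Car5b read -1.53, -1.68 and -1.42 in WT and -1.45, -0.99 and -1.12 in C3aR-/-, a difference of 0.35 ± 0.15 (limma unadjusted p = 0.0512, adjusted p = 0.931), and the groups overlapped by a small margin. Car5a read -2.60, -2.97 and -0.99 in WT and -2.61, -3.63 and -1.95 in C3aR-/-. In each group replicate 3 was its highest and replicate 2 its lowest array. The fat cell list mean had the same order, but 1 gene, Cfd (adipsin), named after its values were seen, spanned most of its range. Cfd read -5.04, -7.07 and -0.44 in WT and -4.15, -5.53 and -0.36 in C3aR-/-. Cidec had the same order too, reading -1.98, -3.05 and -1.61 in WT and -2.70, -3.51 and -2.01 in C3aR-/-. Fabp4 had it in WT only, and Fabp4 and Lep were lowest on replicate 3 in C3aR-/-. The part of fat cells in Car5a was not tested. The difference of -0.54 ± 0.62 turned to 0.06 without WT replicate 3.

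Among the membrane and secreted enzymes 4 of 6 read higher, and 1 of 6 without both end arrays. Car6, the secreted enzyme of saliva, read -2.22, -3.77 and -3.0 in WT and -3.57, -4.27 and -3.42 in C3aR-/-, a difference of -0.76 ± 0.42, the most negative of the tested members, which was -0.11 ± 0.28 without both end arrays. Car9, a hypoxia-induced enzyme, read -1.36, -0.35 and -0.84 in WT and -0.63, -0.68 and -0.19 in C3aR-/-, a difference of 0.35 ± 0.27 that was -0.06 within the arrays of slide row 1. The groups of both genes overlapped. Car14 and Car4, the enzymes on the surface of the proximal tubule, differed by 0.43 ± 0.46 and 0.21 ± 0.38; without both end arrays they turned to -0.36 ± 0.19 and -0.41 ± 0.20. Car12 differed by 0.15, or -0.11 without those arrays, and Car15 by -0.05.

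The carbonic anhydrase-related proteins lack the enzyme activity. Car8 read -4.05, -3.98 and -3.55 in WT and -3.17, -3.49 and -3.50 in C3aR-/-, with no overlap. The difference was 0.48 ± 0.17, or 1.39 times the WT signal, with a 95% confidence interval of 0.06 to 0.90 (limma unadjusted p = 0.0314, adjusted p = 0.931), and a second probe read 0.33 ± 0.30. Car11 read -2.82, -3.40 and -3.29 in WT and -3.35, -3.17 and -2.99 in C3aR-/-; its groups overlapped, its difference was 0.00 ± 0.18, and its sign flipped with quantile or median scaling. Car10 was above background on 2 C3aR-/- arrays and no WT array and was not tested.

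The members differed widely in how much they varied between arrays. The range over the 6 arrays was 0.47 at the median member, beside 0.52 over all genes tested, and ran from 0.18 to 2.96. It exceeded 1 for 10 members, or 19.2%, beside 17.2% of all genes tested. Of these 10, Car14, Car4, Slc26a6, Car3, Car9 and Slc4a4 read higher on C3aR-/- replicate 2 than on WT replicate 1, and Slc4a11, Car5a, Car6 and Car13 lower. Car14 read 1.30, 2.67 and 2.22 in WT and 2.0, 3.30 and 2.17 in C3aR-/-, and Car4 read 0.02, 1.33 and 0.87 in WT and 0.57, 1.46 and 0.81 in C3aR-/-. The mean of the 10 proximal tubule markers was 4.85, 5.96 and 5.75 in WT and 5.84, 6.31 and 5.69 in C3aR-/-, lowest and highest on the same arrays. All 10 markers read higher in C3aR-/-, with a median of 0.34; without both end arrays 3 did, with a median of -0.06. Over all arrays, markers of this list included the fatty acid transporter Slc27a2 at 0.23 ± 0.12 and the lactate transporter Slc5a12 at 0.70 ± 0.39. Their part in the values of Car14, Car4, Slc26a6 and Slc4a4 was not tested. No tested intercalated isoform had a range above 1.

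**Figure D3:**
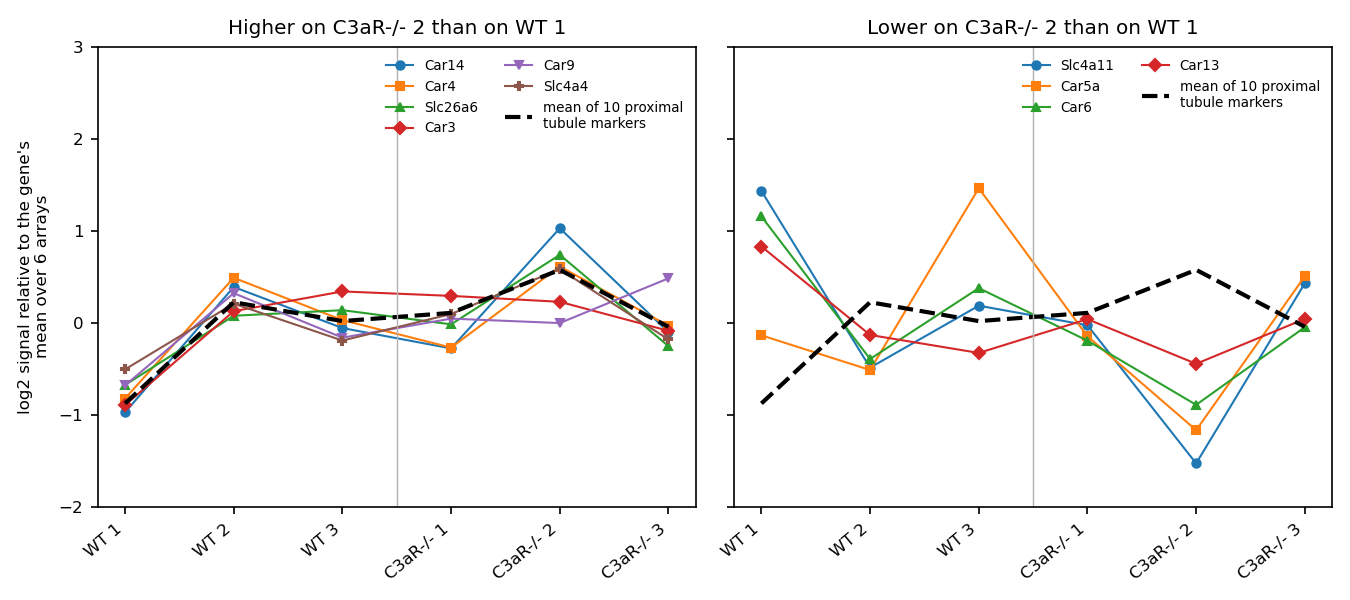
Log2 signal relative to the gene's mean over the 6 arrays (vertical axis) for the 10 members with a range above 1, by array (horizontal axis); lines join the points of 1 gene, and the dashed line is the mean of the 10 proximal tubule markers. Members on the left read higher on C3aR-/- replicate 2 than on WT replicate 1, and those on the right lower. The panels were split in this way. Low values on WT replicate 1 at the left, where the markers are low too, partly follow from that split. So do the high values of Slc4a11, Car6 and Car13 on that array at the right.

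Within the rows of the slide, the direction of the intercalated median was the same. The mean of the 8 intercalated genes was higher on every C3aR-/- array than on any WT array, so a split by row could not turn that mean. Row 1 held WT replicates 2 and 3 and C3aR-/- replicates 1 and 2, and row 2 the other array of each group. The median difference of the 8 intercalated genes was 0.16 in row 1 and 0.22 in row 2, with 6 of 8 higher in each. For the 15 ubiquitous subunits it was 0.18 in row 1 and 0.01 in row 2, with 14 and 8 higher, so the larger median lay with the intercalated genes in row 2 and with the ubiquitous subunits in row 1. Slc26a4 differed by 0.32 in row 1 and 0.18 in row 2, Atp6v0a4 by 0.27 and 0.38, and Atp6v1c2 by 0.20 and 0.28. Row 2 has 1 array per group and no test, and the split by row was chosen after seeing the data.

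Markers of the remaining cell types of cortex gave the following values. In the thick limb and distal tubule 6 of 6 genes read higher with a median of 0.29, and 3 of 6 without both end arrays, with the calcium-binding protein Calb1 at 0.35 ± 0.15 and Egf at 0.60 ± 0.40. Podocyte markers read higher in 3 of 5 with a median of 0.07, with the slit diaphragm protein Nphs1 at 0.26 ± 0.13 and Podxl at 0.25 ± 0.17. The lysozyme Lyz2 and the complement chain C1qa of macrophages differed by -0.92 ± 0.21 and -0.69 ± 0.21, and the T cell genes Cd2 and Cd3d by -1.46 ± 0.32 and -1.23 ± 0.27. Alas2 and Hba-a1 of red cells differed by 0.68 ± 0.40 and 0.57 ± 0.39, Myl1 and Myh4 of muscle by 0.35 ± 0.14 and 0.25 ± 0.13, Lep and Cidec of fat by 0.12 ± 0.09 and -0.52 ± 0.49, and Ctsk and Ocstamp of osteoclasts by -0.28 ± 0.28 and 0.14 ± 0.28. None of these had an adjusted p under 0.05.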

How the data were processed

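RNA of 6 samples was hybridised to 1-colour arrays, from 0.2 µg of RNA per the labels' protocols. The deposited intensity values were made with Agilent Feature Extraction 10.7.1.1 on an mm9 grid, per the file headers, background-subtracted but not normalized between arrays, from 62976 spots on 1 slide in 1 scan. The authors' deposited table of log2 values was an alternative; the sources used here do not give how it was made.

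Groups came from the sample titles. Control and outlier spots were left out, and log2 processed signals were scaled to each array's 75th percentile. Probes well above background on at least 3 arrays were kept (34778), and the brightest on average stood for its gene. Symbols came through the GRCm38.p6 RefSeq table for 32992 probes and from the files for 23607. Differences were fitted with limma 3.58.1 in R 4.3.3, with Benjamini-Hochberg adjustment over 22741 genes, and were first tested on simulated data. Figures were drawn with matplotlib 3.10.9.

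Members and lists were chosen with earlier results of these data known. Some marker genes are not reported here. By rule, array values were given for intercalated genes, their ubiquitous partners and the 2 members with the smallest p in every other group, differences for members with an unadjusted p under 0.05 or a size of at least 0.5, and the 2 genes with the smallest p in each other list; Slc4a11, Car2, Car14 and Car4 were given array values after these were seen, as was each other member's difference. Alternatives changed the scaling (quantile, median), the background step (normexp, offset 50), the source (the authors' table), the filter (none, or all 6 arrays), the probe rule (their mean), the variance model (trend with robust fit, or weights per array) and the samples (each array left out, both end arrays left out, slide row 1 alone), or added a block for replicate number or slide row.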

Additional observations from a re-analysis of the deposited data

How the results depend on the processing

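The depth of an array is its signal over background, and 7 members too dim for the filter have no test. With 3 arrays per group, 0 members passed adjustment. No size of difference was set below which the groups would count as alike, so likeness was not tested. The confidence intervals of the members differed in width, such as -0.29 to 0.17 for Atp6v0e2 and -2.32 to 0.82 for Slc4a11. At the threshold of an adjusted p under 0.05 the count over all genes was 0 in every alternative run. Every alternative kept the medians of the 8 intercalated genes and of the 15 ubiquitous subunits above 0.

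The replicate numbers gave no consistent pairing: same-numbered arrays correlated at 0.125, 0.406 and -0.093 in their deviations from the group means. The highest correlations with arrays of another number were 0.346, -0.16 and 0.076, so only replicate 2 matched its own number best. With the replicate block, 0 genes had an adjusted p under 0.05 and 2 members had an unadjusted p under 0.05. The medians of 0.14 and 0.09 could not move with this block, since each replicate number holds equally many arrays of both groups. The cause of the moves below was not tested, except that fewer arrays or genes enter some of them.

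The count of members with an unadjusted p under 0.05, which was 3, was 1 with no filter, 1 with the mean of probes, 0 without both end arrays, 1 within slide row 1 (an alternative chosen after seeing the data) and between 1 and 5 when single arrays were left out. The intercalated median of 0.14 was 0.20 with array weights, 0.21 without both end arrays and between 0.11 and 0.20 with single arrays left out. The median of all members was 0.11 with normexp, 0.079 with array weights, 0.086 without both end arrays and between 0.072 and 0.13 with single arrays left out.

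Several differences near 0 or with wide errors changed sign. With single arrays left out, Atp6v1b1 ran from -0.15 to 0.16, Slc4a1 from -0.12 to 0.29, Atp6v1c1 from -0.15 to 0.25, Atp6v0a1 from -0.0096 to 0.080, Atp6v0d1 from -0.059 to 0.14, Car11 from -0.11 to 0.18, Atp6v1e2 from -0.21 to 0.021, Car5a from -0.93 to 0.056, Car1 from -0.033 to 0.30 and Ocstamp from -0.036 to 0.43. So did the isoform log ratios, from -0.35 to 0.0061 for the B pair, -0.068 to 0.39 for the C pair, -0.14 to 0.12 for the G pair and -0.10 to 0.15 for the d pair. Without both end arrays, Slc26a1 was -0.064, Slc4a4 -0.051, Car1 -0.066, Slc4a11 0.35 and Hba-a1 -0.081, and the log ratio was -0.13 for the C pair and 0.22 for the G pair. With array weights, Atp6v0d1 was -0.014, Slc26a1 -0.023, Slc4a11 0.020 and Ctsk 0.10. Car11 was -0.0082 with quantile normalization, -0.0042 with median scaling and -0.0084 in the authors' table, where the G pair was 0.00013. Atp6v1g2 was 0.054 with the mean of probes, and Atp6v1e2 0.020 with normexp. Within slide row 1, Slc4a1 was -0.058, Car9 -0.059 and Car1 -0.018. Of 1299 values over 70 results and 19 alternatives, 1237 were classed as unchanged. Differences and log ratios had to keep their direction, and the members' medians to move by less than the replicate spread. Counts and the values over all genes had fixed limits. No gene passed adjustment in any run, so the side of that threshold could not change. The blocks and the trend with robust fit leave every difference as it was, so those unchanged differences were set in advance.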
